A study of Danio rerio with 15 samples.

Results

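Voltage-gated sodium and calcium channel genes and potassium channel genes of every kind were followed in zebrafish brain after exposure to dibromoacetonitrile (DBAN), a brominated by-product of water disinfection. Members were chosen by symbol alone: every row of the deposited gene tables whose symbol begins with kcn and a letter, with scn and a digit, or with cacna, cacnb or cacng, and whose mean over the 15 libraries was 1 or more in CPM (counts-per-million, scaled to library size). The tables hold 14971 genes, of which 100 had such a symbol, 62 for potassium, 14 for sodium and 24 for calcium channels. The level rule kept 73 of them, 42 potassium, 10 sodium and 21 calcium channel genes, and left out 27. The rows nearest the limit were cacna1fb at 1.09, scn12aa at 1.23 and kcnf1a at 1.26 CPM inside it, and cacnb3a at 0.781, kcns3a at 0.917 and scn4bb at 0.955 CPM outside it.

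The brains were those of Danio rerio exposed to DBAN in their water over 56 days, and poly(A) RNA was sequenced in bulk. Females were kept at 0, 40 or 200 µg/L and males at 0 or 40 µg/L, giving 5 groups of 3 libraries. The strain, the age and the number of fish behind a library are not stated, and no group carried a transgene or mutation per the labels. Nothing in the labels says that the 3 libraries of a group came from separate fish or tanks, so the p-values measure only the spread between these libraries, which may be partly technical.

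Neurons signal by opening channels that each let 1 kind of ion through the membrane. Sodium channels open first and drive the upstroke of an action potential, potassium channels end it and set how soon the next can follow, and calcium channels turn the arriving spike into calcium entry that releases transmitter and reaches signalling pathways in the cell. A channel is a pore-forming subunit with helper subunits that carry it to the membrane or change its gating, and zebrafish often have a pair of genes, marked a and b, for 1 mammalian gene. The functions named here are mostly known from mammals, and no transcript length was at hand, so levels are compared between groups and never between genes.

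Library totals ran from 18365050 to 22630829 counts in female controls, 33198859 to 49388334 in females at 40 µg/L and 10488947 to 17684130 in females at 200 µg/L. In males they ran from 31576124 to 48621981 at 40 µg/L and from 35666401 to 42122528 in controls. The libraries also differed in complexity, taken as the median count of the genes that are at 0 in most other libraries. That median was 8 to 11 in female controls, 8 to 35 in females at 40 µg/L and 8 to 17 in females at 200 µg/L, and 39 to 132 in males at 40 µg/L against 8 to 9 in male controls. Genes at 0 numbered 3123 to 5172 in males at 40 µg/L and 1435 to 1831 in male controls. Depth and complexity thus moved with the groups, and their part in the results below was not tested. Summed markers of neurons, 16 of 20 listed genes being in the tables, were 12457 to 13651 CPM in female controls, 12785 to 13689 CPM in females at 40 µg/L and 11265 to 13397 CPM in females at 200 µg/L. The same sum was 12865 to 14004 CPM in males at 40 µg/L and 13955 to 14529 CPM in male controls. In bulk tissue fewer cells of a type and less RNA in each cell cannot be told apart.

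Summed over its members, each class was lowest in females at 200 µg/L. The 42 potassium channel genes together had 931, 901 and 1083 CPM in female controls, 1028, 1049 and 998 CPM in females at 40 µg/L and 716, 459 and 627 CPM in females at 200 µg/L. All 3 libraries at 200 µg/L lay below the other 6 female libraries. The 10 sodium channel genes had 1039, 1295 and 1607 CPM in female controls, 925, 1022 and 1029 CPM in females at 40 µg/L and 792, 413 and 619 CPM in females at 200 µg/L. The group at 200 µg/L was again below both others, while the 40 µg/L libraries were all below the controls. The 21 calcium channel genes had 1512, 1650.2 and 2069 CPM in female controls, 1838, 2061 and 1721 CPM in females at 40 µg/L and 1255, 1179 and 1449 CPM in females at 200 µg/L, and the libraries at 200 µg/L again lay below the other 6.

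In males all 3 sums were lower at 40 µg/L than in controls without overlap. Potassium channel genes summed to 927 ± 47.1 CPM at 40 µg/L and 1287 ± 66.2 CPM in controls (SD, n = 3 each). Sodium channel genes summed to 733 ± 88.2 CPM at 40 µg/L and 1314 ± 97.5 CPM in controls, and calcium channel genes summed to 1798 ± 47.6 CPM at 40 µg/L and 2102 ± 80.2 CPM in controls (SD, n = 3 each). These sums weigh the rows with the most counts most, scn8aa among the sodium, kcnma1a among the potassium and cacng2b among the calcium channel genes. The calcium class goes by symbol and includes 6 genes of the gamma family, cacng2b among them. Most brain members of that family carry glutamate receptors rather than being parts of a calcium channel. Counted gene by gene, 40 of the 73 members had their lowest group mean in females at 200 µg/L and 16 in males at 40 µg/L. In male controls 41 had their highest, among them kcnh2a, scn12aa and cacng4b, which met the level rule only through that group. The order of the groups was not counted over all genes, so these counts have no background beside them.

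**Figure D1:**
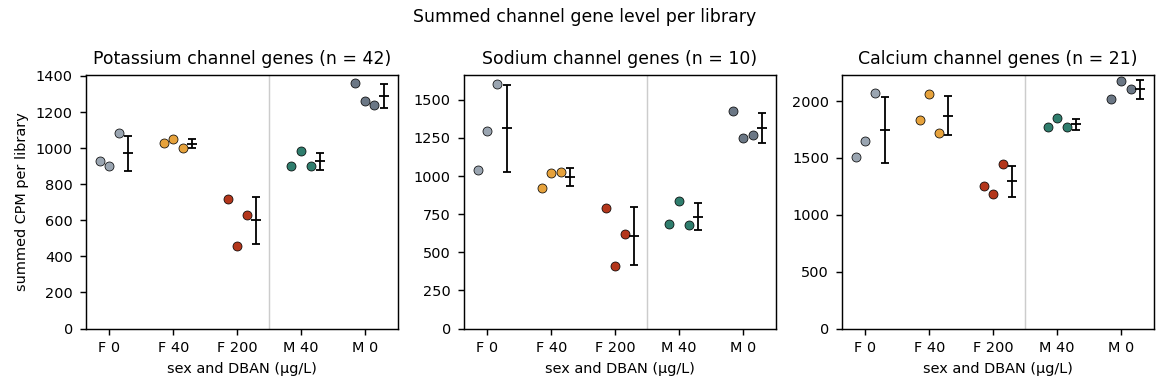
Summed CPM of the 42 potassium, 10 sodium and 21 calcium channel genes in each library (points), with the mean and SD of each group (dash and bar). Females run from 0 to 200 µg/L at the left, and males at 40 µg/L stand left of male controls. Females at 200 µg/L have the lowest mean of each class, with potassium sums of 459 to 716 CPM.

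Setting females at 200 µg/L against female controls asks what the highest sequenced dose did. No channel gene passed the test, edgeR's quasi-likelihood F test with Benjamini-Hochberg adjustment over 12601 genes at an adjusted p under 0.05; of all genes 0.0476% were called lower and 0.00794% higher. At an unadjusted p under 0.05, 16 channel genes were lower and 0 higher, beside 6.26% and 4.57% of all genes. DESeq2 called 11, all lower, beside 169 lower and 158 higher of all 12479 genes. By limma-voom 0 were called, beside 4 lower and 1 higher of all 12601 genes. Here and below a value after ± is the SD of 3 libraries for CPM and the approximate standard error for a log2 fold change. In 52 of the 73 members (71.2%) the fitted change was downward, against 49.8% of all genes, and the median log2 fold change was -0.50 beside 0.0032 over all genes. The groups did not overlap for 19 members, all lower (26.0%), where 10.4% of all genes were lower and 7.52% higher without overlap.

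Of the 5 sodium channel pore subunit genes 4 had a downward change at the high dose, 3 of them without overlap, beside 10.4% of all genes. The other one, scn5lab, a relative of the mammalian heart sodium channel gene, averaged 12.4 ± 3.95 CPM in females at 200 µg/L and 10.3 ± 4.63 CPM in female controls (SD, n = 3 each) and overlapped (log2 fold change 0.28 ± 0.52). scn1lab, a zebrafish relative of the mammalian sodium channel of inhibitory interneurons whose loss causes seizures in zebrafish larvae, had 149, 42.9 and 74.5 CPM in females at 200 µg/L, against 282, 281 and 433 CPM in female controls (log2 fold change -1.90 ± 0.39, adjusted p = 0.124). The 3 exposed libraries were below all controls but spread widely, replicate 1 being the highest of them; without that library the gene was called lower at an adjusted p of 0.043. scn8aa, which encodes the pore of the channel concentrated at axon initial segments and nodes in mammals (chromosome 23, 27251629 to 27345425 in the tables' coordinates, which name no genome build), had 388, 166 and 298 CPM in females at 200 µg/L, against 459, 632 and 783 CPM in female controls (log2 fold change -1.13 ± 0.29, adjusted p = 0.186). Its copy scn8ab had 21.6, 20.8 and 17.6 CPM in females at 200 µg/L, against 34.1, 46.3 and 70.3 CPM in female controls (log2 fold change -1.33 ± 0.30, adjusted p = 0.14). Neither copy overlapped between the groups, and both mean levels were under those at 40 µg/L as well. The beta subunits, helpers that also act in cell adhesion, were less uniform: scn3b was lower without overlap at 2.90, 1.60 and 0 CPM in females at 200 µg/L, against 4.01, 4.85 and 3.63 CPM in female controls, scn1ba overlapped, and scn4ba averaged 9.01 ± 7.81 CPM in females at 200 µg/L and 3.90 ± 0.703 CPM in female controls (SD, n = 3 each). Of the 10 sodium channel genes 8 had a downward change, with a median log2 fold change of -0.86.

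The calcium channel pore subunit genes cacna1c, cacna1da, cacna1ab and cacna1ba showed the same direction. Of the 5 L-type pore genes, however, 3 were fitted upward, with a median log2 fold change of 0.67 over the 5. These were the rare cacna1fb, cacna1sa and cacna1sb, all overlapping with controls. cacna1fb averaged 1.93 ± 1.36 CPM in females at 200 µg/L and 1.21 ± 0.514 CPM in female controls (SD, n = 3 each). With a mean of 1.09 CPM over the 15 libraries, this gene met the level rule only through females at 200 µg/L. The family median is its own fitted value, so the upward count and that median rest in part on how it was selected. cacna1c, the L-type pore subunit that couples calcium entry to gene expression in neurons (chromosome 4, 20318127 to 20474958), had 63.5, 59.0 and 48.8 CPM in females at 200 µg/L, against 151, 136 and 253 CPM in female controls, 3.15-fold lower (log2 fold change -1.65 ± 0.27, adjusted p = 0.0779). This was the smallest adjusted p of any channel gene in the comparison, and all 3 exposed libraries lay far below every control. cacna1da, the other L-type pore subunit of neurons and a pacemaker channel, had 56.7, 71.7 and 52.8 CPM in females at 200 µg/L, against 87.7, 115 and 156 CPM in female controls (log2 fold change -0.98 ± 0.26, adjusted p = 0.2). cacna1ab, the P/Q-type pore subunit that serves transmitter release, had 128, 138 and 128 CPM in females at 200 µg/L, against 221, 258 and 403 CPM in female controls (log2 fold change -1.16 ± 0.22, adjusted p = 0.0982). cacna1ba, the N-type pore subunit found beside it at synapses, averaged 48.0 ± 16.0 CPM in females at 200 µg/L and 88.7 ± 20.7 CPM in female controls (SD, n = 3 each) and was lower without overlap. Of the alpha2delta subunits, which carry calcium channels to the membrane and in mammals bind gabapentin, cacna2d2b had 63.6, 24.1 and 34.8 CPM in females at 200 µg/L, against 99.3, 103 and 199.5 CPM in female controls (log2 fold change -1.71 ± 0.37, adjusted p = 0.139). Some helpers had small fitted changes: cacnb4b, the beta subunit row with the most counts, averaged 243 ± 53.2 CPM in females at 200 µg/L and 220.5 ± 6.94 CPM in female controls, and the stargazin genes cacng2a and cacng2b had log2 fold changes of 0.18 and 0.19. Of the 6 gamma family genes counted in the calcium class 3 were downward, with a median of 0.08. The median over the 21 calcium channel genes was -0.20, with 14 downward. Leaving out single libraries moved this median, to -0.05 without control replicate 3 and -0.08 without replicate 2 at 200 µg/L, and -0.49 without control replicate 2 or without replicate 3 at 200 µg/L.

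Potassium channel genes with the smallest p came from the calcium-activated, Kv3 and Kv beta groups. kcnma1a, the large-conductance calcium-activated BK channel that shortens spikes (chromosome 13, 16522659 to 16885849), had 177, 107 and 189 CPM in females at 200 µg/L, against 306, 382 and 395 CPM in female controls, 2.29-fold lower (log2 fold change -1.19 ± 0.22, adjusted p = 0.0949). Another calcium-activated member, kcnn1a, a small-conductance channel that hyperpolarises the cell after spikes, had 21.0, 17.1 and 11.5 CPM in females at 200 µg/L, against 29.5, 31.5 and 52.3 CPM in female controls (log2 fold change -1.19 ± 0.31, adjusted p = 0.195). Both were lower without overlap, while kcnn1b, the copy of kcnn1a, had a log2 fold change of 1.44 and overlapped. kcnc1a, a Kv3 pore subunit that lets neurons fire at high rates, had 48.1, 31.5 and 26.1 CPM in females at 200 µg/L, against 79.3, 59.7 and 90.2 CPM in female controls (log2 fold change -1.11 ± 0.27, adjusted p = 0.17). kcnab2b, a cytoplasmic beta subunit of Kv1 channels, had 12.3, 5.54 and 6.64 CPM in females at 200 µg/L, against 31.3, 17.0 and 36.1 CPM in female controls (log2 fold change -1.78 ± 0.43, adjusted p = 0.174). kcnh4a, an EAG-family pore subunit, was nearly absent from the exposed libraries, with 0.931, 0 and 0.747 CPM in females at 200 µg/L, against 6.61, 1.05 and 4.85 CPM in female controls (log2 fold change -2.85 ± 1.07, adjusted p = 0.367). The control values of kcnh4a themselves spread over a wide range, and so few counts lie behind the exposed ones that the fold is uncertain.

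By family, all 6 Kv3 genes, all 5 EAG-family genes and all 3 Kv4 genes, pore subunits of A-type currents, had downward changes, of which 2, 3 and 1 were without overlap. Of all genes 10.4% were lower without overlap. The 3 EAG-family genes, kcnh1a, kcnh2a and kcnh4a, averaged only 2.06, 0.073 and 0.559 CPM in females at 200 µg/L, so few counts lie behind them. Of the 8 two-pore-domain leak channel genes and the 6 inward rectifier genes, which hold the resting potential, none was separated between the groups. Downward were 3 of the leak channel genes (median log2 fold change 0.30) and 4 of the inward rectifier genes (median -0.73). kcnk15, a leak channel of the TASK family, averaged 27.3 ± 11.3 CPM in females at 200 µg/L and 17.4 ± 1.73 CPM in female controls, and kcnj11, the pore of the ATP-sensitive potassium channel, averaged 6.86 ± 3.22 CPM in females at 200 µg/L and 4.68 ± 2.08 CPM in female controls (SD, n = 3 each). The median log2 fold change of the 42 potassium channel genes was -0.61, with 30 downward, and -0.40 without replicate 2 at 200 µg/L.

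Females at 200 µg/L also had the fewest counts of the 5 groups, and markers of other cells moved beside the channel genes. The 9 blood genes in the tables (of 11 listed, none at 0 throughout) summed to 1353 to 15556 CPM in females at 200 µg/L and 954 to 2132 CPM in female controls. All 9 had an upward fitted change, with a median log2 fold change of 2.84 and 0 calls by edgeR, 3 being higher at an unadjusted p under 0.05. The photoreceptor and pineal list (20 of 22 genes in the tables, opn1mw1 and rcvrna at 0 throughout) summed to 55.8 to 1165 CPM in females at 200 µg/L and 44.7 to 58.8 CPM in female controls, with 9 of 10 tested genes upward. Of 15 tested skeletal muscle genes (19 of 23 in the tables, none at 0 throughout) 13 were upward, with a median of 1.06. The sum of the muscle list, 296 to 829 CPM in females at 200 µg/L and 689 to 859.8 CPM in female controls, follows mainly the single row ryr1b, which had 172 to 797 CPM over the 15 libraries. Of the 14 radial glia genes 6 were higher without overlap and 0 lower. Of the 16 neuron genes 10 were fitted downward, with a median of -0.08. Without overlap 2 of them were lower and 0 higher, beside 10.4% and 7.52% of all genes. Depth and these markers went with the group, and their part in the channel values was not tested.

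**Figure D2:**
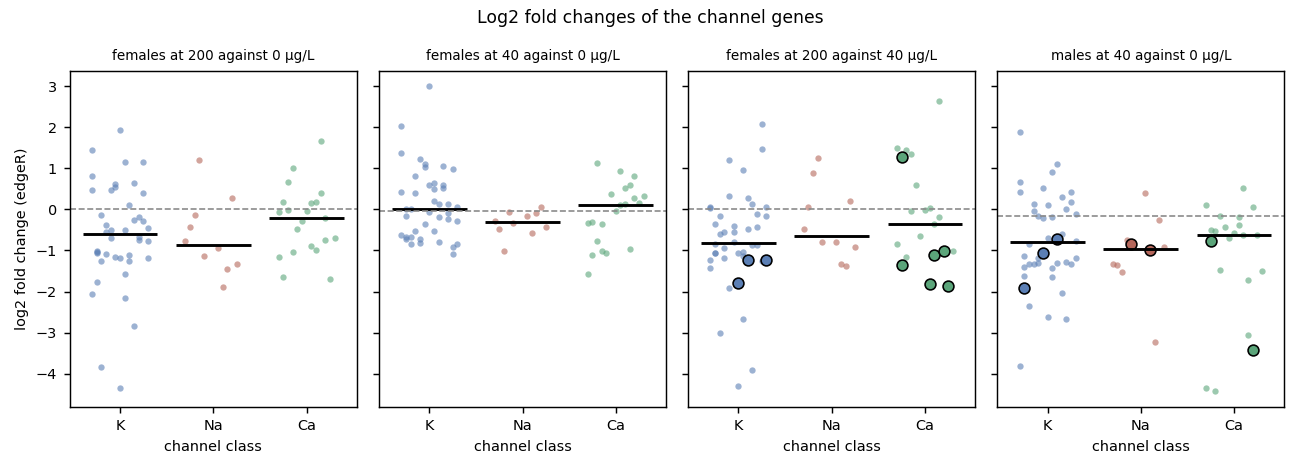
Log2 fold changes of the 73 channel genes in each comparison, by class (1 point a gene). Outlined larger points passed the test, black lines mark the class median and the dashed grey line the median of all genes. In females at 200 µg/L against controls the class medians lie at -0.61 for potassium, -0.86 for sodium and -0.20 for calcium channel genes, and no point is outlined.

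In females at 40 µg/L the fitted changes of channel genes went in both directions. None of the 73 was called by edgeR, where 0.143% of all genes were called lower and 0.0952% higher. At an unadjusted p under 0.05, 5 were higher and 4 lower, beside 7.54% and 7.8% of all genes. DESeq2 called 4, 2 in each direction, beside 417 higher and 378 lower of all 12479 genes. limma-voom called 1, cacng2a, beside 112 higher and 98 lower of all 12601 genes. The median log2 fold change was -0.07, beside -0.03 over all genes, and lay between -0.15 and 0.02 when any 1 library was left out. Without overlap 10 members were higher and 4 lower (13.7% and 5.48%, against 11.3% and 13.7% of all genes). Cell type markers moved here too, with 0 calls. All 9 blood genes were fitted upward (median 1.42), with sums of 1986 to 12817 CPM in females at 40 µg/L and 954 to 2132 CPM in female controls. Of the 10 oligodendrocyte genes 8 were fitted downward, and the 16 neuron genes were split, 8 upward and 8 downward. Their part in the channel values was not tested.

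The gene nearest to a call belonged to the gamma family, most of whose brain members are known as TARPs, proteins that carry AMPA-type glutamate receptors to synapses rather than parts of a calcium channel. cacng2a, one of the pair of stargazin genes (chromosome 3, 29714775 to 29845174), had 88.5, 116 and 65.9 CPM in females at 40 µg/L, against 186, 213 and 188 CPM in female controls, 2.17-fold lower (log2 fold change -1.11 ± 0.24, adjusted p = 0.0646). Every exposed library was under every control, and without replicate 2 of the exposed group the gene was called at an adjusted p of 0.0291. Its copy cacng2b, which the tables place on a contig outside the chromosomes, had 410.2, 347 and 289 CPM in females at 40 µg/L, against 226, 267 and 231 CPM in female controls (log2 fold change 0.53 ± 0.22, adjusted p = 0.27). The copies thus lay apart in opposite directions, each without overlap. cacng8a, another TARP gene, had 275, 312 and 202 CPM in females at 40 µg/L, against 148, 154 and 148 CPM in female controls (log2 fold change 0.81 ± 0.24, adjusted p = 0.136).

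Other members separated at 40 µg/L were the N-type pore subunit and some potassium channel genes. cacna1ba had 126, 272 and 113 CPM in females at 40 µg/L, against 74.7, 78.9 and 112 CPM in female controls (log2 fold change 0.94 ± 0.37, adjusted p = 0.243), with replicate 2 far above the other exposed libraries. kcnd1, a Kv4 pore subunit, had 32.4, 20.7 and 29.3 CPM in females at 40 µg/L, against 10.9, 10.5 and 20.3 CPM in female controls (log2 fold change 0.98 ± 0.35, adjusted p = 0.201). kcng1, a silent subunit that forms no channel alone but alters Kv2 channels, had 6.05, 17.1 and 13.1 CPM in females at 40 µg/L, against 3.01, 2.53 and 3.26 CPM in female controls, 4.11-fold higher (log2 fold change 2.04 ± 0.66, adjusted p = 0.171). The lowest exposed value of kcng1 was still above the highest control. Downward were scn2b, a sodium channel beta subunit and the member with the second smallest p, with 23.7, 26.9 and 29.6 CPM in females at 40 µg/L, against 59.9, 48.2 and 53.5 CPM in female controls (log2 fold change -1.01 ± 0.28, adjusted p = 0.127), and cacna2d2a with 18.4, 17.6 and 20.4 CPM in females at 40 µg/L, against 21.2, 40.8 and 55.9 CPM in female controls (log2 fold change -1.06 ± 0.43, adjusted p = 0.256). All 5 sodium beta subunit genes had downward changes at this dose, with a median of -0.16. kcnd3, a Kv4 gene with -0.83 ± 0.34 on the log2 scale, and kcnh6a, an EAG-family gene with 0.81 ± 0.38, overlapped with controls, and kcnj11 at 1.12 ± 0.57 was higher without overlap. kcnn1a at 0.61 ± 0.31 and scn1bb at -0.48 ± 0.23 overlapped, and scn1lab was lower without overlap, at 219.7, 204 and 246 CPM in females at 40 µg/L, against 282, 281 and 433 CPM in female controls (log2 fold change -0.57 ± 0.37, adjusted p = 0.545).

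Between the exposed female groups 9 channel genes passed the test, 8 lower at 200 than at 40 µg/L (11.0% of members) and 1 higher (1.37%). Of all genes 2.06% were called lower and 1.87% higher. These groups also enter the comparisons with controls, so the values are no independent evidence. Among the 8 lower genes were kcnc1a, kcnma1a and kcnn1a for potassium channels and cacna1ba, cacna1c, cacna1da and cacna2d2b for calcium channels. The other lower gene was cacng8a of the gamma family. The gene that rose was cacng2a, of the same family. Without overlap 21 members were lower and 5 higher, at 28.8% and 6.85% against 13.4% and 11.9% of all genes, and the median log2 fold change was -0.64 (potassium -0.83, sodium -0.64, calcium -0.35) beside 0.0094 over all genes. Without replicate 2 of the 40 µg/L group the median over all members was -0.38 and that of the sodium channel genes -0.39. The potassium median was -0.54 without replicate 2 at 200 µg/L. The calcium median was -0.23 without replicate 1 and -0.76 without replicate 3 at 200 µg/L, and -0.55 without replicate 1 at 40 µg/L. Of the 16 neuron markers 3 were called lower (18.8%) and 0 higher, with 9 fitted upward and 7 downward. Of the 14 radial glia markers 2 were called higher and 1 lower. No gene of the other cell type lists was called. Their part in the channel values was not tested.

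kcnn1a fell to 21.0, 17.1 and 11.5 CPM in females at 200 µg/L, against 50.6, 55.0 and 66.6 CPM in females at 40 µg/L (log2 fold change -1.79 ± 0.31, adjusted p = 0.0205). kcnma1a fell 2.37-fold, with 177, 107 and 189 CPM in females at 200 µg/L, against 378, 399 and 345 CPM in females at 40 µg/L (log2 fold change -1.24 ± 0.22, adjusted p = 0.0207). kcnc1a fell 2.35-fold, with 48.1, 31.5 and 26.1 CPM in females at 200 µg/L, against 92.0, 72.8 and 84.5 CPM in females at 40 µg/L (log2 fold change -1.24 ± 0.27, adjusted p = 0.0355). In each of these potassium channel genes the libraries at 40 µg/L lay around the controls or above them, and the step was between 40 and 200 µg/L. Among the calcium channel genes cacna2d2b fell to 63.6, 24.1 and 34.8 CPM in females at 200 µg/L, against 166, 148 and 135 CPM in females at 40 µg/L (log2 fold change -1.87 ± 0.37, adjusted p = 0.0277). cacna1ba fell 3.54-fold, with 59.9, 54.3 and 29.7 CPM in females at 200 µg/L and 126, 272 and 113 CPM in females at 40 µg/L (log2 fold change -1.83 ± 0.38, adjusted p = 0.0311). None of these groups overlapped. Of the L-type genes cacna1c fell 2.54-fold, with 63.5, 59.0 and 48.8 CPM in females at 200 µg/L, against 115, 148 and 172 CPM in females at 40 µg/L (log2 fold change -1.35 ± 0.26, adjusted p = 0.0271). cacna1da fell 2.17-fold, with 56.7, 71.7 and 52.8 CPM in females at 200 µg/L, against 114, 168 and 112 CPM in females at 40 µg/L (log2 fold change -1.12 ± 0.26, adjusted p = 0.0417).

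In the gamma family the 2 called genes went opposite ways. cacng8a fell 2.02-fold, with 107, 107 and 176 CPM in females at 200 µg/L, against 275, 312 and 202 CPM in females at 40 µg/L (log2 fold change -1.01 ± 0.24, adjusted p = 0.0428). cacng2a rose 2.45-fold, with 207, 178 and 276 CPM in females at 200 µg/L, against 88.5, 116 and 65.9 CPM in females at 40 µg/L (log2 fold change 1.29 ± 0.24, adjusted p = 0.0238). For cacng2a the libraries at 200 µg/L stood where the controls stood, at 186, 213 and 188 CPM. No sodium channel gene passed: scn1lab had a log2 fold change of -1.32 ± 0.38 (adjusted p = 0.0816), scn8ab -0.90 ± 0.29 (adjusted p = 0.111) and scn2b 0.88 ± 0.28 (adjusted p = 0.104). Close to a call stood kcnc3a, a Kv3 gene, at -0.94 ± 0.24 (adjusted p = 0.0557), kcnd1 at -1.26 ± 0.35 (adjusted p = 0.0742), kcnh4a at -3.92 ± 1.12 (adjusted p = 0.0788) and cacna1ab at -0.84 ± 0.22 (adjusted p = 0.0627).

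These 9 calls changed with the library left out and with the fit. None remained without replicate 1 or 3 of the 40 µg/L group or without replicate 3 of the 200 µg/L group, none with female controls left out of the fit and none with a replicate block, although the replicate numbers do not pair the libraries. Over all genes these settings leave fewer calls too, 11, 33 and 1 without those libraries in that order, 61 without the controls and 76 with the block, against 495. With the 40 µg/L group given by replicate 2 alone, the library of that group whose rare-gene median was as low as in the controls, 0 channel genes were called; that library is then assumed to vary like those of the other groups, and only 6 of all genes were called. Leaving out any 1 of the other exposed libraries gave 7 or 8 calls, beside 243 to 596 of all genes. DESeq2 made 15, 2 higher and 13 lower, beside 734 higher and 645 lower of all 12479 genes. The direction of each called gene held in all of these settings.

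**Figure D3:**
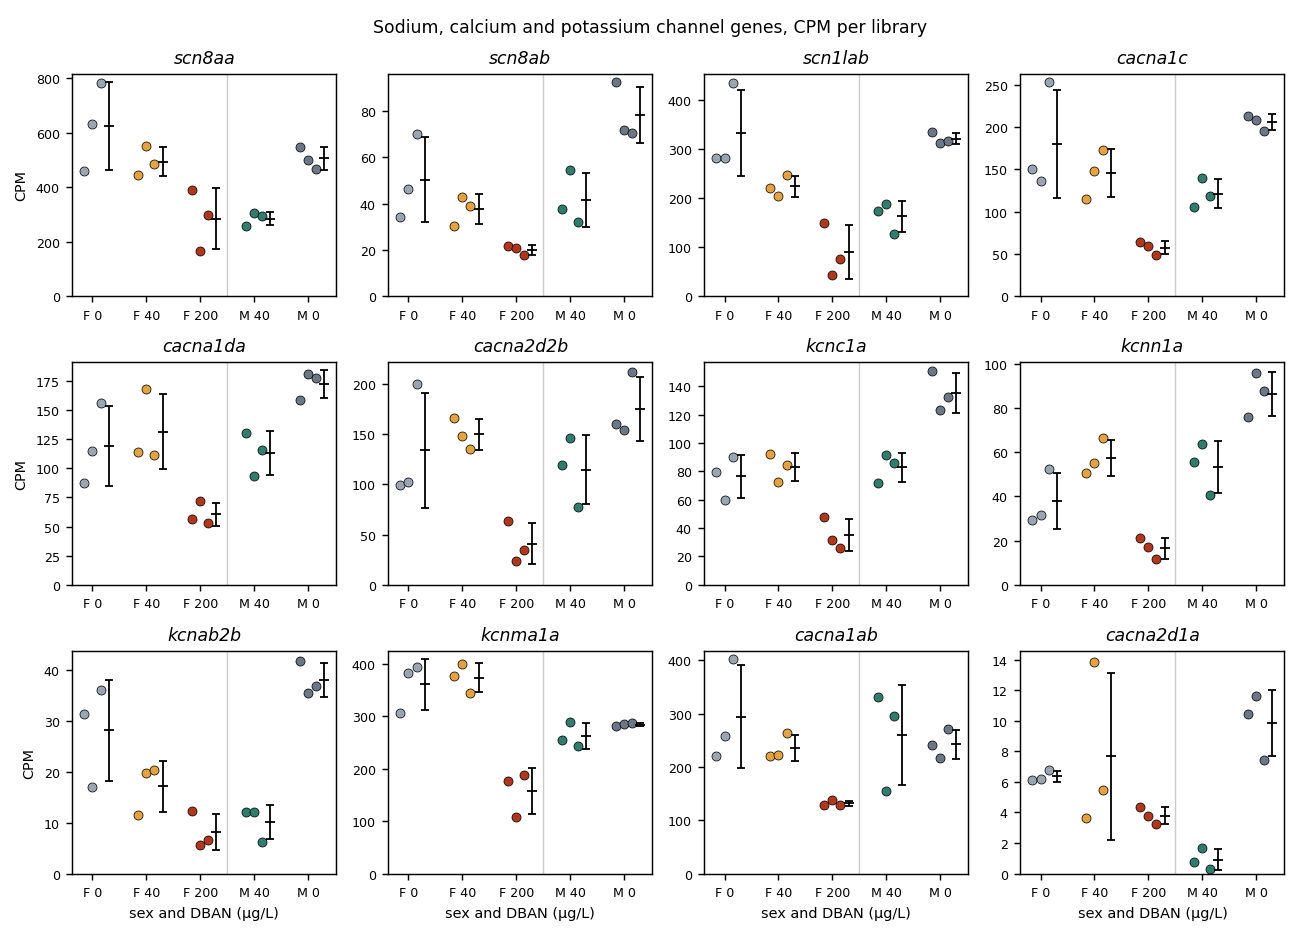
CPM of 12 channel genes in each library (points) with group mean and SD (dash and bar); each panel has its own axis from 0. kcnma1a has 107 to 189 CPM in females at 200 µg/L and 243 CPM or more in each other library, while cacna2d1a is at 1.65 CPM or less in males at 40 µg/L.

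In males 40 µg/L was the only dose, and 7 channel genes passed the test, all lower: kcnab2b, kcnc1a and kcnd2 for potassium, scn1lab and scn8aa for sodium, cacna1c and cacna2d1a for calcium channels. They are 9.59% of the members, where 7.25% of all 12454 genes were called lower and 8.38% higher, so the share called lower was near that of all genes. No member was called higher, 57 of 73 had a downward change (78.1%, against 55.5% of all genes), and the median log2 fold change was -0.76 beside -0.16. Without overlap 34 were lower and 1 higher, at 46.6% and 1.37% of members, against 27.6% and 17.0% of all genes. Among the 34 are kcnh2a and cacng4b, which met the level rule only through male controls. They averaged 4.15 and 5.45 CPM there and 0.809 and 0.245 CPM in males at 40 µg/L. The same selection holds for scn12aa, which was fitted downward and overlapped. Class medians were -0.80 for potassium, -0.96 for sodium and -0.61 for calcium channel genes.

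Both called sodium channel pore genes fell to a similar degree. scn8aa had 257, 304 and 292 CPM in males at 40 µg/L, against 549, 501 and 466 CPM in male controls, 1.78-fold lower (log2 fold change -0.83 ± 0.15, adjusted p = 0.0155). scn1lab had 173, 187 and 126 CPM in males at 40 µg/L, against 334, 312 and 315 CPM in male controls, 1.98-fold lower (log2 fold change -0.99 ± 0.18, adjusted p = 0.0171). For both, every exposed library stood well under every control library. scn8ab had 37.9, 54.5 and 31.9 CPM in males at 40 µg/L, against 92.5, 71.8 and 70.8 CPM in male controls and just missed the threshold (log2 fold change -0.92 ± 0.26, adjusted p = 0.055). Among the beta subunits scn2b had 37.1, 25.6 and 25.8 CPM in males at 40 µg/L, against 137, 47.2 and 69.6 CPM in male controls (log2 fold change -1.53 ± 0.42, adjusted p = 0.0514) and scn1bb had 29.0, 101 and 82.7 CPM in males at 40 µg/L, against 186, 187 and 172 CPM in male controls (log2 fold change -1.36 ± 0.43, adjusted p = 0.0737), each lower without overlap and not called. scn1ba, the copy of scn1bb, averaged 130.1 ± 20.2 CPM in males at 40 µg/L and 98.8 ± 25.4 CPM in male controls and overlapped (SD, n = 3 each). scn3b had 0, 8.37 and 0 CPM in males at 40 µg/L, against 31.9, 23.2 and 24.5 CPM in male controls, so that 1 exposed library carried most of its signal.

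The calcium channel calls were a pore subunit and an alpha2delta subunit. cacna1c fell to 106, 139.7 and 118 CPM in males at 40 µg/L, against 214, 208 and 196 CPM in male controls (log2 fold change -0.77 ± 0.16, adjusted p = 0.0255). cacna2d1a, whose mammalian counterpart is the main gabapentin-binding subunit (chromosome 4, 19768679 to 19883985), fell 10.8-fold, with 0.779, 1.65 and 0.303 CPM in males at 40 µg/L, against 10.5, 11.7 and 7.45 CPM in male controls (log2 fold change -3.43 ± 0.87, adjusted p = 0.0433). This was the largest fold among the called channel genes in males, at a level under 1 CPM in 2 of the exposed libraries. In females at 200 µg/L the same gene was 1.67-fold lower without overlap and not called. cacna1da averaged 113 ± 18.9 CPM in males at 40 µg/L and 172 ± 12.09 CPM in male controls (SD, n = 3 each) and stood just outside the threshold (log2 fold change -0.61 ± 0.17, adjusted p = 0.051). cacng7a, a TARP gene, had 6.85, 10.2 and 16.5 CPM in males at 40 µg/L, against 41.1, 24.9 and 26.8 CPM in male controls (log2 fold change -1.47 ± 0.42, adjusted p = 0.0556). The synaptic pore subunits differed from these: cacna1ab and cacna1ba overlapped with controls, at log2 fold changes of 0.10 ± 0.28 and -0.19 ± 0.26. cacng2b was the 1 member higher without overlap, with 342, 362 and 395 CPM in males at 40 µg/L, against 194, 253 and 317 CPM in male controls (log2 fold change 0.53 ± 0.19, adjusted p = 0.115).

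Among potassium channel genes kcnab2b fell most of those called, 3.77-fold, with 12.07, 12.13 and 6.21 CPM in males at 40 µg/L, against 41.9, 35.5 and 36.8 CPM in male controls (log2 fold change -1.91 ± 0.33, adjusted p = 0.0156). kcnd2, the Kv4 pore subunit of A-type currents in dendrites, had 30.2, 22.6 and 19.8 CPM in males at 40 µg/L, against 54.0, 43.4 and 52.6 CPM in male controls (log2 fold change -1.05 ± 0.24, adjusted p = 0.032). kcnc1a had 71.6, 91.4 and 85.7 CPM in males at 40 µg/L, against 151, 123 and 133 CPM in male controls (log2 fold change -0.71 ± 0.18, adjusted p = 0.0408). None of these 3 genes overlapped between the groups, and the control libraries again lay close together. Not called but separate were kcnc1b (log2 fold change -1.34 ± 0.41, adjusted p = 0.0693), the leak channel genes kcnk10a (log2 fold change -1.31 ± 0.37, adjusted p = 0.0543) and kcnk1b (log2 fold change -1.32 ± 0.44, adjusted p = 0.0842), kcnn1a (log2 fold change -0.70 ± 0.22, adjusted p = 0.0726) and kcnj11l (log2 fold change -1.18 ± 0.41, adjusted p = 0.0962). kcnma1a, which had the smallest p of the potassium channel genes in females at 200 µg/L against controls, averaged 262 ± 24.2 CPM in males at 40 µg/L and 284 ± 2.92 CPM in male controls (SD, n = 3 each). kcnip1b, a KChIP partner of Kv4 channels, had 59.0, 38.6 and 26.2 CPM in males at 40 µg/L, against 159, 79.7 and 57.3 CPM in male controls, overlapping through 1 exposed library.

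The male calls changed with the library left out. None remained without control replicate 1 or without control replicate 2, and 1, scn8aa, remained without control replicate 3. Calls among all genes fell too, to 360, 286 and 705 in that order, against 1947. Leaving out exposed replicate 1 gave 5 calls, exposed replicate 3 gave 7, and exposed replicate 2 gave 21. Of all genes 1154, 1647 and 3144 were then called, in that order. DESeq2 called 23, of which 22 were lower, beside 1519 lower and 1556 higher of all 12141 genes. limma-voom called 18, all lower, beside 1426 lower and 1192 higher of all 12454 genes. All 3 exposed male libraries were of low complexity, so no fit without such libraries could be made, and that feature and the exposure cannot be told apart. Markers of cell types moved with the male groups as well. Of the 16 neuron genes 6 were called lower and 3 higher (37.5% and 18.8%), with a median log2 fold change of -0.25. Of all genes 7.25% were called lower and 8.38% higher, and of the channel members 9.59% were called lower. The radial glia list (14 of 14 genes in the tables, none at 0 throughout) summed to 3488 to 3945 CPM in males at 40 µg/L and 4654 to 5585 CPM in male controls, but its genes were split, 7 upward and 7 downward, with 3 called lower and 2 higher (21.4% and 14.3%) and a median of -0.07. Microglia genes (15 of 16 in the tables) summed to 784 to 1336 CPM in males at 40 µg/L and 485 to 645 CPM in male controls, with 2 of 12 tested called higher (16.7%) and 0 lower. Of 12 tested skeletal muscle genes 2 were called higher (16.7%) and 0 lower. Their part in the channel values was not tested.

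**Figure D4:**
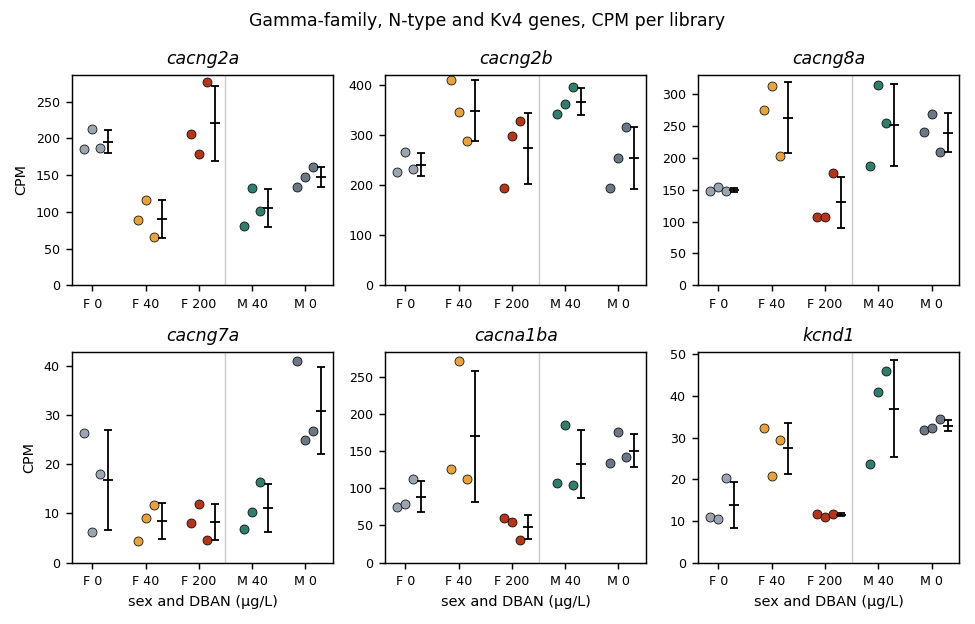
CPM of 6 further channel genes in each library (points) with group mean and SD (dash and bar), each panel on its own axis from 0. At 40 µg/L the mean of cacng2a is lower and that of cacng2b higher than in controls of the same sex, and the means of cacna1ba and kcnd1 are higher in females at 40 µg/L than in the other female groups.

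Whether 40 µg/L acted differently in females and males was tested as the difference between the effects (female effect minus male effect) in 12 libraries. No channel gene passed (edgeR; 0.0% of 13149 genes were called in either direction). At an unadjusted p under 0.05 the difference was positive for 12 members and negative for 0, where the shares of all genes were 7.94% and 6.58%. DESeq2 called 2, kcnn1a and cacna2d1a, both positive, beside 270 positive and 186 negative of all 12928 genes. By limma-voom 0 members and 0 of all genes were called. In 61 of 73 members the difference was positive, that is, less downward in females, against 53.7% of all genes, with a median of 0.79 beside 0.09. The smallest p belonged to cacna2d1a, with a difference of 3.69 ± 1.02 on the log2 scale (adjusted p = 0.179), kcnn1a with 1.30 ± 0.36 (adjusted p = 0.179), kcnh4a with 3.102 ± 0.999 (adjusted p = 0.209) and cacnb2a, a calcium channel beta subunit gene, with 1.81 ± 0.59 (adjusted p = 0.212). Next came kcnc1a at 0.83 ± 0.27, cacnb1 at 1.06 ± 0.41, cacng8a at 0.74 ± 0.29, kcnip1b at 1.17 ± 0.50 and kcnab2b at 1.19 ± 0.51. Among the sodium channel genes scn1bb at 0.87 ± 0.50, scn8aa at 0.49 ± 0.26 and scn3b at 3.16 ± 2.105 had the smallest p, each above 0.05 before adjustment. Without exposed male replicate 2, 5 members were called, all positive, beside 280 positive and 89 negative of all genes. The difference between the sexes at 40 µg/L is thus not shown for any channel gene at this depth by edgeR. The male controls, with the highest group mean for 41 members (not counted over all genes), enter this test, the male comparison above and the comparison of controls below. Those results are therefore not independent of each other.

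The control fish of each sex already differed. Of the 73 members 4 were called, all lower in female controls than in male controls (5.48%, against 2.09% of all 13149 genes called lower and 2.31% higher). cacnb1, a calcium channel beta subunit gene, had 12.6, 8.44 and 16.3 CPM in female controls, against 36.9, 37.4 and 32.1 CPM in male controls (log2 fold change -1.51 ± 0.30, adjusted p = 0.0196). kcnc1b, a Kv3 gene, had 5.47, 6.38 and 8.77 CPM in female controls, against 26.4, 26.9 and 26.3 CPM in male controls, 3.85-fold lower in females (log2 fold change -1.95 ± 0.46, adjusted p = 0.0357). The copy of that gene, kcnc1a, had 79.3, 59.7 and 90.2 CPM in female controls, against 151, 123 and 133 CPM in male controls (log2 fold change -0.82 ± 0.19, adjusted p = 0.0353). kcnn1a had 29.5, 31.5 and 52.3 CPM in female controls, against 76.0, 95.8 and 87.4 CPM in male controls (log2 fold change -1.19 ± 0.26, adjusted p = 0.0283). All 6 Kv3 genes had lower fitted levels in female controls, 5 of them without overlap. Over all members 56 had a lower fitted level in female controls (76.7%, against 48.7% of all genes), 35 of them without overlap and 3 higher without overlap (47.9% and 4.11%, against 20.9% and 18.9% of all genes), and the median log2 difference was -0.67 beside 0.03. The higher ones were kcnma1a at 0.35, kcnip3b at 1.66 and cacng2a at 0.41 on the log2 scale. Among the lower members kcnh2a and cacng4b, both without overlap, and scn12aa met the level rule only through male controls. Lower without overlap and not called were, among those with the smallest p, kcnd1 (log2 fold change -1.24 ± 0.33, adjusted p = 0.0528), kcnk1b (log2 fold change -1.83 ± 0.50, adjusted p = 0.0561), kcnj11l (log2 fold change -1.41 ± 0.40, adjusted p = 0.0657), scn8ab (log2 fold change -0.64 ± 0.29, adjusted p = 0.232), scn1bb (log2 fold change -0.92 ± 0.35, adjusted p = 0.155), cacnb4b (log2 fold change -0.58 ± 0.18, adjusted p = 0.0809), cacng8a (log2 fold change -0.67 ± 0.21, adjusted p = 0.0817) and cacna1ba (log2 fold change -0.76 ± 0.33, adjusted p = 0.214). scn2b overlapped, at -0.65 ± 0.33. The call count was 3 without female control replicate 3 and 0 without any 1 of the other 5 control libraries. Over all genes it was 155 without female control replicate 3 and 0 to 286 without 1 of the others, against 579. DESeq2 called 12, 1 higher and 11 lower, beside 846 higher and 798 lower of all 12928 genes. Female controls had at most 22630829 counts a library and male controls at least 35666401, so sex and depth cannot be told apart here. All 9 blood genes had lower fitted levels in female controls, 1 of them called, with sums of 954 to 2132 CPM in female controls and 1287 to 7730 CPM in male controls. Of the 16 neuron genes 4 were called lower in female controls and 1 higher (25.0% and 6.25%, against 2.09% and 2.31% of all genes). Of the 14 radial glia genes 3 were called lower (21.4%, against 2.09% of all genes) and 0 higher, with 7 fitted downward and 7 upward. The part of these markers in the channel values was not tested.

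**Figure D5:**
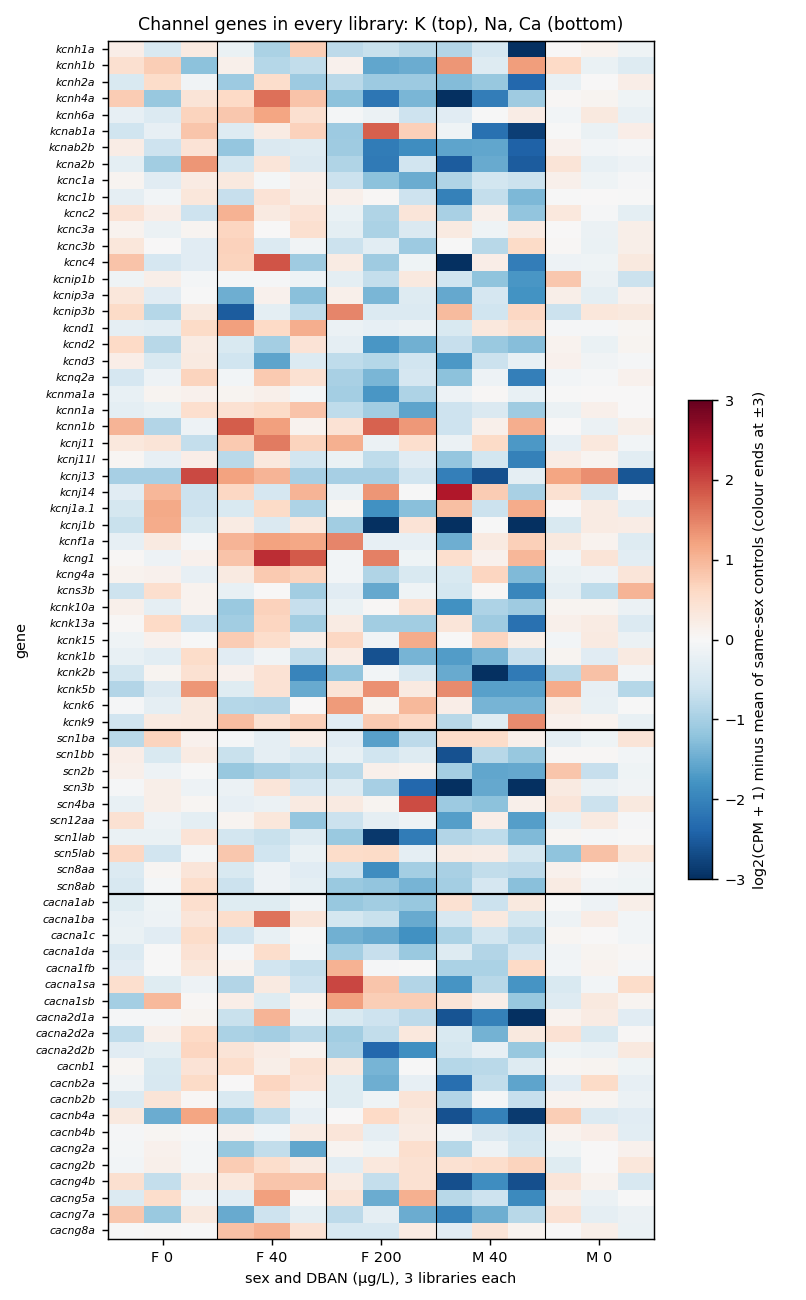
The 73 channel genes (rows, by class and role) in the 15 libraries (columns), coloured by log2(CPM + 1) minus the mean of the same-sex controls, with colours ending at -3 and 3. Blue cells are more frequent in the columns of females at 200 µg/L and males at 40 µg/L, where 52 and 57 of the 73 genes have downward fitted changes.

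The high dose in females and the 40 µg/L dose in males share no library. Lower without overlap in both comparisons were 15 members, 78.9% of the 19 lower in females at 200 µg/L and 44.1% of the 34 lower in males. Over all genes tested in both fits the shares were 39.6% of 1284 and 15.2% of 3346. These shares start from unlike levels. In males 46.6% of members and 27.6% of all genes were lower without overlap, and in females at 200 µg/L 26.0% and 10.4%. The 15 were kcnab2b, kcnc1a, kcnd3, kcnh1a, kcnh2a, kcnh4a and kcnn1a for potassium, scn1lab, scn3b, scn8aa and scn8ab for sodium, and cacna1c, cacna1da, cacna2d1a and cacna2d2b for calcium channels. Both copies of scn8a and both neuronal L-type pore genes are among them. Also among them is kcnh2a, which met the level rule only through male controls, at 4.15 CPM there. It averaged 0.073 CPM in females at 200 µg/L and 1.21 CPM in female controls. The members lower without overlap in females at 200 µg/L but not in males were kcnc3a, kcnma1a, cacna1ab and cacna1ba. kcnc3a averaged 146 ± 21.4 CPM in males at 40 µg/L and 134 ± 16.2 CPM in male controls, against 60.6 ± 13.8 CPM in females at 200 µg/L and 88.3 ± 9.63 CPM in female controls (SD, n = 3 each). No test compares the 200 µg/L effect in females with the 40 µg/L effect in males, since the doses differ.

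The a and b copies of a gene did not always share a direction. Of the 12 channel pairs with both copies tested, the fitted changes had the same sign in 9 in females at 200 µg/L against controls, 7 in females at 40 µg/L against controls, 8 between the female doses and 7 in males. Over all such pairs in the tables the share with the same sign was 57.6%, 56.5%, 58.2% and 64.7% in that order of comparisons. scn8aa and scn8ab had the same sign throughout these 4, with log2 fold changes of -1.13 and -1.33 in females at 200 µg/L, -0.34 and -0.42 in females at 40 µg/L, each against controls, and -0.83 and -0.92 in males. cacng2a and cacng2b had opposite signs at 40 µg/L in both sexes, -1.11 and 0.53 in females and -0.49 and 0.53 in males. kcnn1a and kcnn1b, small-conductance calcium-activated channel genes, had -1.19 and 1.44 in females at 200 µg/L and -0.70 and 0.41 in males. scn1ba and scn1bb, genes for the same mammalian beta subunit, had 0.40 and -1.36 in males. How far the authors' counting splits reads between copies is not given, so the levels of single copies carry that uncertainty.

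Rare members gave little information. Of the 73 members 25 were at 0 in at least 1 library and none was at 0 in all libraries of a group. The skeletal muscle L-type pore genes cacna1sa and cacna1sb averaged 2.85 ± 3.19 and 3.55 ± 0.957 CPM in females at 200 µg/L and 0.89 ± 0.622 and 1.78 ± 1.77 CPM in female controls (SD, n = 3 each), with overlap. Their direction was that of 13 of the 15 tested skeletal muscle markers in that comparison. In females at 40 µg/L against controls they had log2 fold changes of -0.96 and -0.35, where 8 of 15 muscle markers were upward. In males they had -3.05 and -0.17, where 8 of 12 were upward. kcnj13, an inward rectifier gene, averaged 0.111 ± 0.192 CPM in females at 200 µg/L and 2.31 ± 4.001 CPM in female controls (SD, n = 3 each), and overlapped between the groups. kcnj1a.1 is 1 of a run of numbered tandem copies in the tables, and kcnab2b, kcnj11 and cacna1fb are also placed on alternative contigs, so their reads may be divided. No member overlapped another gene of the tables in position.

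Other ion channels and proteins that bind or place channels were followed as lists chosen with earlier results of these data known. Of 46 tested genes for other ion channels (49 of 89 listed are in the tables) none was called in either female group against controls by edgeR; at an unadjusted p under 0.05, 1 was higher and 3 lower at 200 µg/L, and 5 higher and 2 lower at 40 µg/L, where of all genes 4.57% were higher and 6.26% lower at 200 µg/L, and 7.54% and 7.8% at 40 µg/L. DESeq2 called 0 at 200 µg/L and 1, higher, at 40 µg/L, where it called 417 higher and 378 lower of all 12479 genes. By limma-voom 0 were called at either dose. Between the female doses 2 fell (4.35%, against 2.06% of all genes), nalcn, the sodium leak channel that sets resting excitability, with 98.5 ± 0.65 CPM in females at 200 µg/L and 181 ± 32.5 CPM in females at 40 µg/L (log2 fold change -0.88 ± 0.20, adjusted p = 0.0402), and trpm7, a channel with a kinase domain, with 339 ± 14.7 CPM in females at 200 µg/L and 624 ± 131 CPM in females at 40 µg/L (log2 fold change -0.88 ± 0.21, adjusted p = 0.044). In males 3 were called lower (6.52%, against 7.25% of all genes) and 2 higher (4.35%, against 8.38%), shares below those of all genes. There trpm7 rose, with 639 ± 58.7 CPM in males at 40 µg/L and 312 ± 70.4 CPM in male controls (log2 fold change 1.03 ± 0.19, adjusted p = 0.0181), as did the mitochondrial porin vdac3 (log2 fold change 0.68 ± 0.17, adjusted p = 0.0405). The genes that fell in males were clcn7, a lysosomal chloride transporter (log2 fold change -1.26 ± 0.29, adjusted p = 0.0341), the cation channel trpc1 (log2 fold change -1.20 ± 0.23, adjusted p = 0.0189) and asic2, an acid-sensing channel (log2 fold change -1.41 ± 0.23, adjusted p = 0.0138). The list's median log2 fold change in males was -0.46, with 33 of 46 downward. There 14 were lower and 4 higher without overlap, beside 27.6% and 17.0% of all genes. In females at 200 µg/L against controls 29 of 46 were downward (63.0%), and 12 were lower and 2 higher without overlap. Of the 73 channel members 26.0% were lower without overlap there, and of all genes 10.4% were lower and 7.52% higher. Between the female doses 13 were lower and 3 higher without overlap, beside 13.4% and 11.9% of all genes.

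Of 26 tested channel partners (29 of 61 listed are in the tables) 22 had a downward change in females at 200 µg/L against controls, with a median of -0.50 and 0 calls by edgeR, DESeq2 or limma-voom. At an unadjusted p under 0.05, 4 were lower and 0 higher there, beside 6.26% and 4.57% of all genes. Without overlap 7 were lower and 0 higher, beside 10.4% and 7.52% of all genes. At 40 µg/L the median was 0.12, with 0 calls by edgeR and limma-voom. DESeq2 called 1, higher, beside 417 higher and 378 lower of all 12479 genes. At an unadjusted p under 0.05, 2 were higher and 0 lower, beside 7.54% and 7.8% of all genes. Between the female doses 3 fell and 0 rose (11.5% and 0%, against 2.06% and 1.87% of all genes). They were ank2b, an ankyrin that anchors membrane proteins, with 919 ± 166 CPM in females at 200 µg/L and 1605 ± 215 CPM in females at 40 µg/L (log2 fold change -0.80 ± 0.18, adjusted p = 0.0404), cntn1a, a contactin that binds sodium channel beta subunits in mammals, with 90.0 ± 18.2 CPM in females at 200 µg/L and 240.5 ± 51.8 CPM in females at 40 µg/L (log2 fold change -1.42 ± 0.24, adjusted p = 0.0187), and vapa, which links the endoplasmic reticulum to Kv2 clusters (log2 fold change -1.14 ± 0.27, adjusted p = 0.0423). In males 4 fell and 1 rose (15.4% and 3.85%, against 7.25% and 8.38% of all genes). fgf13a, a relative of growth factors that binds sodium channels inside the cell, fell to 121 ± 17.3 CPM in males at 40 µg/L, against 237 ± 19.3 CPM in male controls (SD, n = 3 each; log2 fold change -0.97 ± 0.17, adjusted p = 0.0153). The contactin genes cntn1b (log2 fold change -0.94 ± 0.15, adjusted p = 0.0132) and cntn2 (log2 fold change -0.98 ± 0.21, adjusted p = 0.0272) fell, and so did lgi2a, a secreted protein of the LGI family (log2 fold change -2.85 ± 0.52, adjusted p = 0.0179). ank1a, another ankyrin gene, rose, with 382 ± 60.0 CPM in males at 40 µg/L and 201 ± 15.1 CPM in male controls (log2 fold change 0.92 ± 0.16, adjusted p = 0.0168). The partners' median log2 fold changes were -0.58 between the female doses and -0.85 in males, beside 0.0094 and -0.16 over all genes.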

How the data were processed

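Brain poly(A) RNA of 15 libraries was analysed, 3 in each of 5 groups. The authors deposited 2 tables of 14971 genes each that hold whole-number counts per gene and library, with gene positions; the 3 female control columns are identical in both and were used once. The submitters' processing notes list DESeq2, StringTie, Picard, STAR and FastQC, giving neither version nor role; which of them made the deposited counts is not stated. The genome build and the annotation are not given in the sources used here. Start and end columns of the deposited tables are printed as they stand.

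Members and gene lists were chosen with earlier results of these data known. The tests on counts used edgeR 4.0.16 in R 4.3.3: filterByExpr, TMM scaling, robust quasi-likelihood F test and Benjamini-Hochberg adjustment over all tested genes, called at an adjusted p under 0.05. Females were fitted together (9 libraries, 12601 genes, common biological coefficient of variation 0.650), males apart (6 libraries, 12454 genes, 0.769), and the 4 groups at 0 and 40 µg/L together for the comparisons between sexes (12 libraries, 13149 genes, 0.739). All 73 members passed the filter in each fit, so none was lost. CPM were computed with TMM factors of all 15 libraries, and each log2 fold change has an approximate standard error, its size over the root of F. Groups do not overlap where every library of a group lies on 1 side of every library of the other.

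Total counts per library of 10488947 to 49388334 limit the precision. Small counts pile up at multiples of 4 (40.5% to 49.6% of values from 1 to 40), as if each fragment gave about 4 counts, and the rarest genes rest on few fragments. Genes were named by rule: every called member, plus the 6 potassium, 3 sodium and 4 calcium channel members with the smallest p in a comparison, the 6, 3 and 4 with the highest mean CPM, the 3 rows on each side of the 1 CPM limit, and pairs of copies. Other members named were chosen after their values were seen. Of the 100 channel symbols 99 matched the RefSeq gene table. The tests were also run on simulated counts, and no result above rests on the outcome. Alternatives were DESeq2 1.42.0, limma-voom (limma 3.58.1), other scalings, filters and dispersion settings, counts divided by 4, other sets of libraries in the fit, a replicate block and each library left out.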

Additional observations from a re-analysis of the deposited data

How the results depend on the processing

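Scaling, filters and dispersion left the direction of all 80 named results in place and, except 2 under non-robust dispersion, their side of the threshold. Under the 1 CPM rule with CPM from total counts 74 rows passed, and limits of 0.5 and 2 CPM gave 82 and 62. DESeq2 called 11 channel genes in females at 200 µg/L against controls, 4 in females at 40 µg/L against controls, 15 between the female doses, 23 in males, 2 for the difference between the sexes and 12 between the controls. Of all genes DESeq2 called 327, 795, 1379, 3075, 456 and 1644 in that order. limma-voom called 1 in females at 40 µg/L against controls and 18 in males, beside 210 and 2618 of all genes. With all 5 groups in the fit the counts were 3 and 1 for females at 200 and 40 µg/L against controls and 12 in males. Over all genes they were 40, 144 and 2361. With only the 2 groups in the fit, or with the 40 µg/L group by replicate 2 alone, 0 were called between the female doses, fewer libraries then giving the spread, and with replicate 2 alone the median at 40 µg/L against controls was 0.12. The male median was -0.9998 with limma-voom, where the median of all genes was -0.44. The cause of the differences between the tests was not tested.

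Replicate numbers did not pair the libraries, since the deviations of libraries with the same number correlated at -0.126 to 0.065. With a replicate block 0 channel genes were called between the female doses, 5 in males and 3 between the controls. Of all genes 76, 973 and 283 were called in that order. The male median with the block was -0.95 beside -0.40 over all genes.

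Leaving out 1 library gave 0 to 1 calls in either female group against controls, 0 to 8 between the female doses, 0 to 21 in males, 0 to 5 for the difference between the sexes and 0 to 3 between the controls. Over all genes the calls numbered 1 to 10 and 0 to 289 in females at 200 and 40 µg/L against controls. They numbered 1 to 596 between the female doses, 286 to 3144 in males, 0 to 369 for the difference between the sexes and 0 to 286 between the controls. Medians over all members then ran from -0.68 to -0.37 in females at 200 µg/L and -0.15 to 0.02 in females at 40 µg/L against controls, from -0.89 to -0.38 between the doses and from -0.91 to -0.73 in males. For potassium channel genes the ranges were -0.77 to -0.40, -0.07 to 0.20, -1.01 to -0.54 and -0.94 to -0.75 in that order of comparisons. For sodium channel genes they were -0.95 to -0.76, -0.46 to -0.16, -0.77 to -0.39 and -1.16 to -0.82. For calcium channel genes they were -0.49 to -0.05, -0.27 to 0.11, -0.76 to -0.23 and -0.76 to -0.61. Depth was lowest at 200 µg/L, and the rarest members rest on few fragments.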

Other observations

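The 27 channel rows under a mean of 1 CPM were 20 potassium, 4 sodium and 3 calcium channel genes. Of these, kcna6a, scn4aa and 4 of the numbered tandem copies of kcnj1a were at 0 in all 15 libraries. scn1laa, the other zebrafish gene beside scn1lab, had counts in 1 library and a mean of 0.0584 CPM. scn4ab, a sodium channel gene of skeletal muscle, averaged 0.314 CPM. Some rows were seen in most libraries at low level, cacnb3a in 14, kcnh5a and kcne4 in 12 each, and kcns3a and scn4bb in 10 each.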
